A study of Mus musculus with 4 samples.

Results

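Chemokines are small secreted proteins that steer leukocytes, and their receptors sit on the cells they attract. The genes described here are the chemokine and chemokine receptor genes of a mouse mammary tumour series, taken by gene symbol (Ccl, Cxcl, Xcl and Cx3cl ligands, and Ccr, Cxcr, Xcr, Cx3cr and Ackr receptors) wherever an array probe set was annotated to that gene alone. The search found 53 of the 12393 genes measured this way: 32 ligands, 17 receptors and 4 atypical receptors. Each gene was read from its brightest probe set, and 15 of the 53 had more than 1. Cxcl3, Cxcr1, Ccl19, the Ccl21 genes, Ccl26 and Ccl27b were not analysed here.

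Tumours came from 4 groups of nulliparous female FVB mice, each represented by 1 Affymetrix array of RNA pooled from 5 animals: MMTV-PAX8PPARg mice with RU486 pellets, MMTV-PAX8PPARg mice with placebo pellets, wild-type (WT) littermates with RU486 pellets, and WT littermates with placebo pellets. All groups, the placebo ones included, had received 15 mg of the progestin MP (Depo-Provera) and then 4 weekly gavages of 1 mg DMBA, a carcinogen. RU486 (mifepristone) blocks the progesterone and glucocorticoid receptors; its pellets held 2.5 mg for release over 60 days, were first implanted a day after the last DMBA dose and were replaced once after 60 days. The MMTV promoter drives the PAX8PPARg fusion gene mainly in mammary epithelium. The labels call the samples mammary tumours and the extraction protocol speaks of mammary gland tissue. With 1 array per group, no comparison of arrays has a replicate check or a test, and the spread between mice is hidden by the pooling. The number of arrays therefore limits the precision of each value below.

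The chemokine system is usually read by ligand families. CXC ligands with an ELR motif (Cxcl1, Cxcl2, Cxcl5 and Cxcl15) attract neutrophils, with Cxcl1, Cxcl2 and Cxcl5 acting through Cxcr2. The monocyte chemoattractant proteins (Ccl2, Ccl7, Ccl12) act through Ccr2 and draw monocytes out of blood. Cxcl9, Cxcl10 and Cxcl11 are induced by interferon and attract T and NK cells through Cxcr3. Cxcl12, Cxcl13 and the Ccr7 ligands organise lymphoid tissue. Atypical receptors (Ackr) bind chemokines without the usual G protein signal and remove or transport them. In mammary tumours, chemokines are made by epithelium, fibroblasts, endothelium and the leukocytes themselves.

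Signals are on the authors' linear scale. Differences were taken from log2(signal + 16), with arrays centred on a common median, and are positive where the group named first is higher; the added 16 understates those of dim genes. Probe sets for bacterial genes, to which mouse RNA should not hybridise, reached 35.3 on the PAX8PPARg RU486, 8.3 on the PAX8PPARg placebo, 18.5 on the WT RU486 and 9.6 on the WT placebo array. A signal at or below that level is called at background on its array, and a ratio against it is given as "at least". At background were 18 of the 53 genes on the PAX8PPARg RU486 array, 6 on the PAX8PPARg placebo, 12 on the WT RU486 and 4 on the WT placebo array. The spike-in controls were 2.43 times as bright on the PAX8PPARg RU486 and 1.59 times as bright on the WT RU486 as on the WT placebo array. Pax8 was at background on all 4 arrays, and no source used here says whether its probe set reads the fusion transcript, so it does not check the genotype labels. Pparg, the other partner of the fusion, read 13.2 (at background) on the PAX8PPARg RU486, 497.5 on the PAX8PPARg placebo, 35.4 on the WT RU486 and 75.9 on the WT placebo array. It was thus highest on 1 transgenic array and lowest on the other, and it too does not check the labels. Epithelial content could be checked, but not mammary origin as such. The epithelial markers Krt8 (6035, 4798, 2201 and 7930) and Epcam (7339, 5564, 479 and 6249) were well above background on the PAX8PPARg RU486, PAX8PPARg placebo, WT RU486 and WT placebo arrays, in that order.

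Chemokine genes differed between arrays more often than genes in general by most of the counts below. In WT, RU486 against placebo, 10 of 53 were at least 2-fold higher (7.46% of all genes) and 6 at least 2-fold lower (8.88% of all genes). In PAX8PPARg, RU486 against placebo, 12 were at least 2-fold higher (10.6% of all genes) and 13 at least 2-fold lower (7.08% of all genes). Between genotypes, PAX8PPARg against WT, 9 were higher and 8 lower under placebo (4.34% and 5.49% of all genes), and 6 higher and 16 lower under RU486 (10.9% and 10.2% of all genes). As shares of the 53 genes these counts are 18.9% and 11.3%, 22.6% and 24.5%, 17.0% and 15.1%, and 11.3% and 30.2%. The share lower with RU486 in WT and the share higher in PAX8PPARg under RU486 were near the background. The medians of the 53 differences stayed close to those of all genes: 0.21 against 0.01 for RU486 in WT, 0.10 against 0.13 for RU486 in PAX8PPARg, 0.08 against -0.15 for genotype under placebo and -0.20 against 0.01 for genotype under RU486. The RU486 difference in PAX8PPARg minus that in WT had a median of -0.54 over the 53 genes, against 0.15 over all genes. A difference of at least 2-fold in at least 1 of the 4 comparisons was found for 38 of the 53 genes, against 35.8% of all genes. The other 15 stayed within 2-fold in all 4 comparisons, against 64.2% of all genes: Ackr2, Ccl1, Ccl20, Ccl25, Ccl27a, Ccr1l1, Ccr3, Ccr4, Ccr8, Cx3cl1, Cxcl16, Cxcr4, Cxcr6, Xcl1 and Xcr1.

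**Figure D1:**
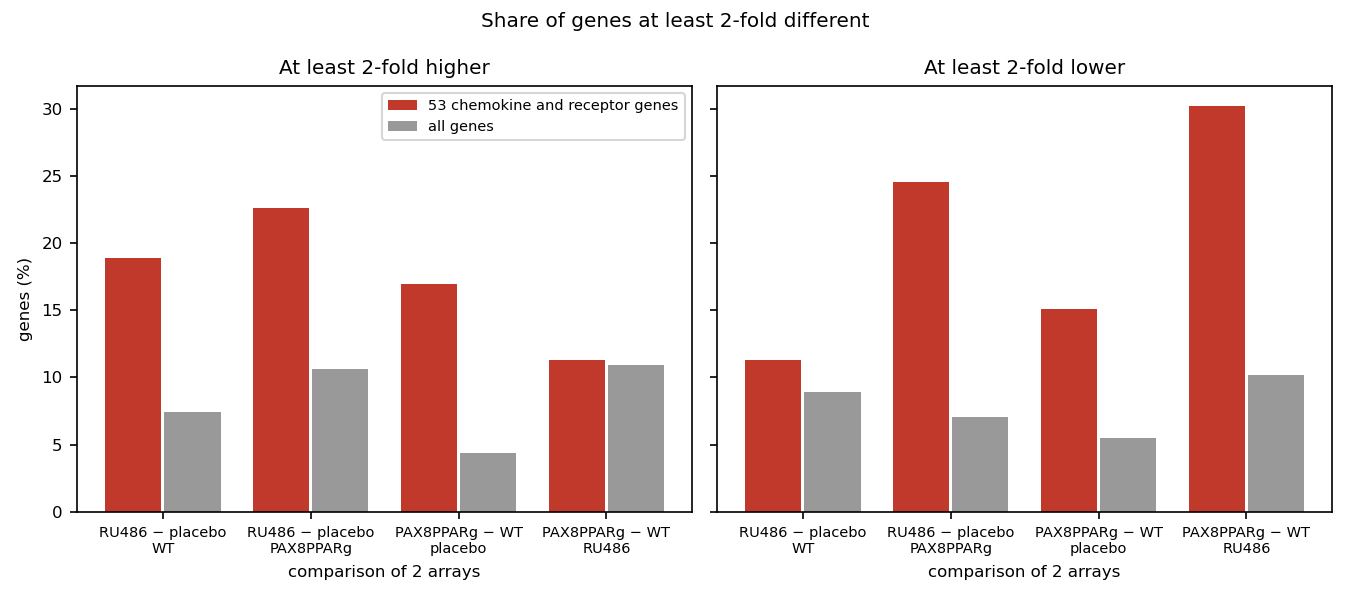
Percent of genes at least 2-fold higher (left) or lower (right) in each comparison of 2 arrays, for the 53 chemokine and receptor genes (red bars) and all 12393 genes (grey bars). The red bar is tallest for genotype under RU486, lower side (30.2% against 10.2%), and level with the grey one for the same comparison on the higher side (11.3% against 10.9%).

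**Figure D2:**
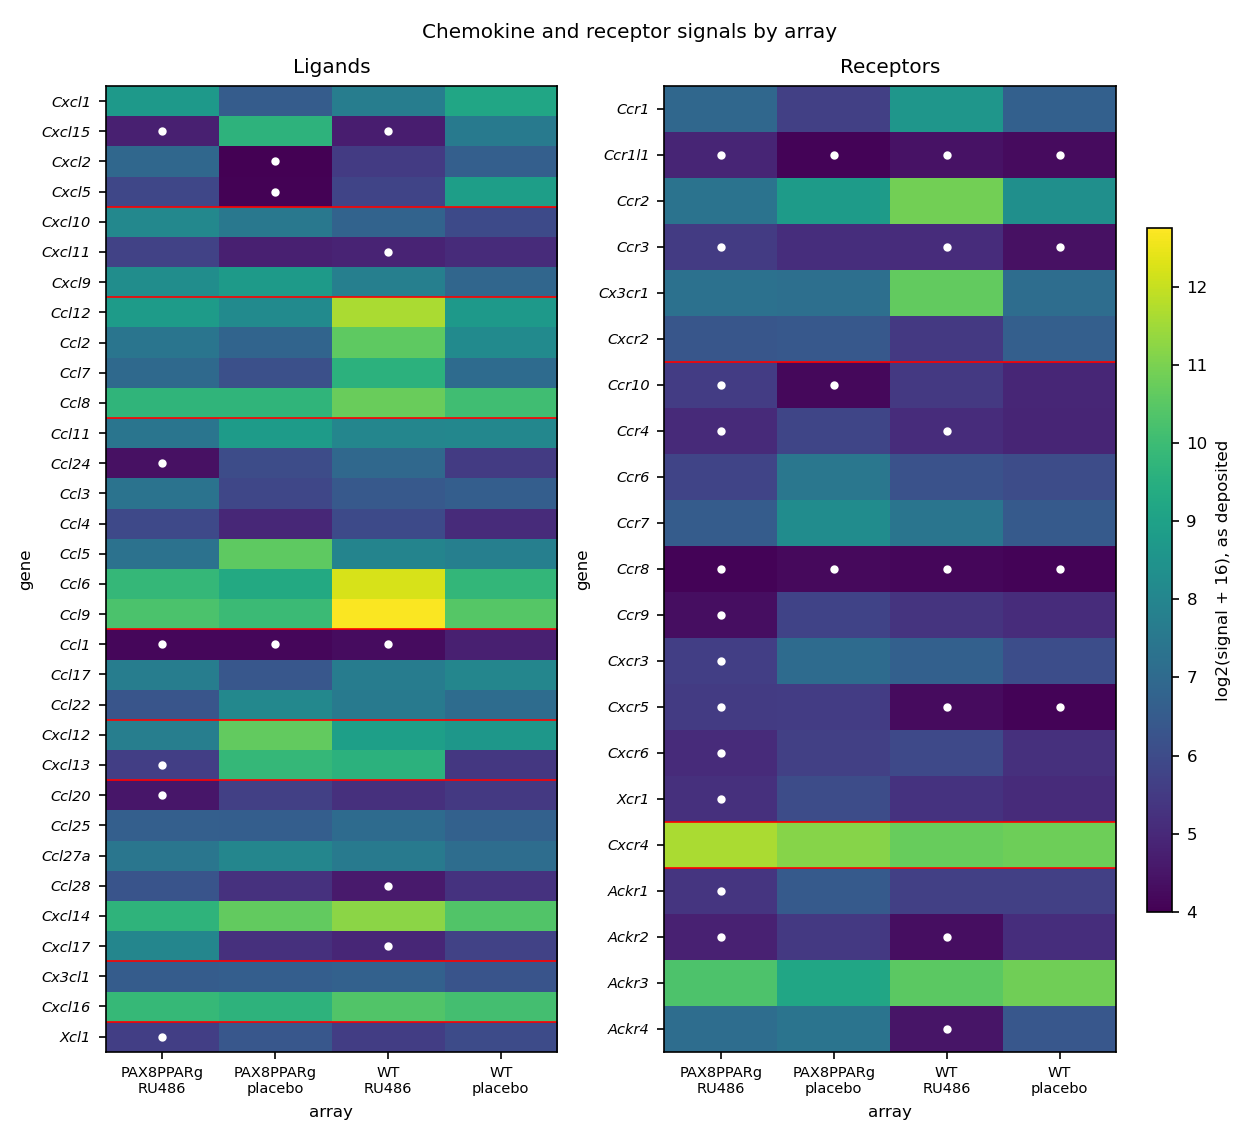
Signal of each of the 53 genes as log2(signal + 16), as deposited, on the 4 arrays (columns); ligands are on the left, receptors on the right, red lines part the role groups, and a white dot marks a signal at background on its array. Ccl12, Ccl2, Ccl7, Ccl6, Ccl9, Ccr2 and Cx3cr1 are each brightest in the WT RU486 column, and most white dots lie in the 2 RU486 columns (18 and 12 genes).

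Monocyte-attracting ligands were each highest on the WT RU486 array. Ccl12, a mouse monocyte chemoattractant, read 435 on the PAX8PPARg RU486, 277 on the PAX8PPARg placebo, 3159 on the WT RU486 and 415 on the WT placebo array. Ccl2, the prototype monocyte chemoattractant, read 152, 98.1, 1503 and 274 on the same arrays in that order. Ccl7, its close relative, read 109.7, 54.6, 771 and 117. In all 3 the WT RU486 array stood alone at the top and the PAX8PPARg placebo array was lowest. RU486 minus placebo was 2.88 for Ccl12, 2.39 for Ccl2 and 2.56 for Ccl7 in WT, and 0.76, 0.69 and 0.97 in PAX8PPARg. Ccl8, the fourth gene of this group and in mice mainly a Ccr8 ligand, read 835, 828.5, 1703 and 1054 and stayed within 2-fold in both genotypes (0.14 in PAX8PPARg and 0.68 in WT).

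Ccl6 and Ccl9, myeloid chemokines of rodents that act through Ccr1, had the same profile. Ccl6 read 899.5 on the PAX8PPARg RU486, 622 on the PAX8PPARg placebo, 4711.5 on the WT RU486 and 881 on the WT placebo array. Ccl9 read 1209, 984, 6699 and 1370.2 in that order. RU486 minus placebo in WT was 2.40 for Ccl6 and 2.28 for Ccl9, and their second probe sets gave 3.05 and 2.61. Under RU486, PAX8PPARg minus WT was -2.43 for Ccl6, -2.51 for Ccl9, -2.87 for Ccl12, -3.23 for Ccl2, -2.70 for Ccl7 and -1.07 for Ccl8, so all 6 were lower in the PAX8PPARg pool. Ccl2 and Ccl7 were also lower in PAX8PPARg under placebo (-1.54 and -1.11).

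Macrophage and monocyte markers moved with these ligands. Their 12 genes had a summed signal of 11816 on the PAX8PPARg RU486, 13127 on the PAX8PPARg placebo, 47447 on the WT RU486 and 12344 on the WT placebo array, with Itgam alone at background, on the PAX8PPARg RU486 array. With RU486, 11 of the 12 were at least 2-fold higher in WT (median 2.26) and 0 of 12 differed 2-fold in PAX8PPARg (median -0.04). Under RU486, all 12 were at least 2-fold lower in PAX8PPARg than in WT (median -2.07). In bulk tissue, fewer cells of a type and less RNA per cell cannot be told apart, and the part of the macrophage markers in the ligand values was not tested. Other lists differed on the same array: the summed signal of 9 luminal genes was 37326 on the PAX8PPARg RU486, 33812 on the PAX8PPARg placebo, 6243 on the WT RU486 and 39459 on the WT placebo array. With RU486 in WT all 9 were at least 2-fold lower, as were 6 of 6 squamous genes, while of 5 mast cell genes 3 were higher (Tpsb2 by 2.51) and 1, Kit, was lower. Their part was not tested either.

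Upstream sequences of Ccl9 and Ccl12, which shared this profile, are printed to show that their start-proximal DNA differs. They come from RefSeq (GRCm38.p6), as the 250 bases before the gene start, 5′ to 3′ on the gene's strand, and 40 of the 53 genes had an entry. Capitals mark matches to the NF-κB consensus, the site of the transcription factor family that drives many inflammatory genes, on either strand. Ccl9 (chr11:83578637-83578886, minus strand) had 1 match, on the opposite strand, beginning 35 bases before the start, and Ccl12 (chr11:82101595-82101844, plus strand) had none. Of 32851 mouse promoters of this length 7.25% hold a match, and among the 44 promoters of chemokine and receptor genes 10 do (Ackr2, Ccl1, Ccl20, Ccl9, Ccr1, Ccr3, Ccr6, Cxcl1, Cxcl10 and Cxcl2). A match describes letters and does not show binding.
Ccl9: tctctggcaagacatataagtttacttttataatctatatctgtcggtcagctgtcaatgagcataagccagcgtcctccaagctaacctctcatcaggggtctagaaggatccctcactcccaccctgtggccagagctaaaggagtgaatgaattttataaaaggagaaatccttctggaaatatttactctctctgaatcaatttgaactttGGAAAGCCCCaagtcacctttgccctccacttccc
Ccl12: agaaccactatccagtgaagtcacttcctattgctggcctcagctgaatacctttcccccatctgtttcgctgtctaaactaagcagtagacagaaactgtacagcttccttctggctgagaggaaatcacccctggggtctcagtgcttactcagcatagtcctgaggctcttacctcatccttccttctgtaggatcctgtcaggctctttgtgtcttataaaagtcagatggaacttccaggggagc

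Among the other inflammatory CC ligands, the profiles diverged. Ccl5, made by T and NK cells and macrophages, read 142 on the PAX8PPARg RU486, 1525 on the PAX8PPARg placebo, 234 on the WT RU486 and 201 on the WT placebo array. It was high on 1 array only, the PAX8PPARg placebo. Its difference was -3.15 for RU486 in PAX8PPARg, 0.20 for RU486 in WT and 2.64 for genotype under placebo. Ccl11, the eotaxin that draws eosinophils, read 154, 429.5, 241 and 249 and was lower with RU486 in PAX8PPARg (-1.25) while its WT difference was -0.05. Ccl24, a second eotaxin made by alternatively activated macrophages, read 5.2, 49.4, 109.6 and 29.5. Its PAX8PPARg RU486 signal was at background, and it was 1.47 higher with RU486 in WT and at least 1.16-fold lower with RU486 in PAX8PPARg. Ccl3 and Ccl4, the macrophage inflammatory proteins, were higher with RU486 in PAX8PPARg. Ccl3 read 146.8, 42.1, 71.8 and 82.4, which gave 1.62 in PAX8PPARg and -0.16 in WT. Ccl4 read 44.8, 15.1, 46.7 and 17.7, which gave 1.10 in PAX8PPARg and 0.90 in WT. The Ccl4 value in PAX8PPARg was 0.97 without centring of the arrays and 0.79 with quantile normalization.

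Neutrophil-attracting CXC ligands were lower with RU486 in WT and, with 1 exception, higher with RU486 in PAX8PPARg. Cxcl1, an early neutrophil attractant, read 404 on the PAX8PPARg RU486, 78.4 on the PAX8PPARg placebo, 191 on the WT RU486 and 562 on the WT placebo array. Cxcl2 read 105.7, 0.1, 29.7 and 83.2 in that order. Cxcl5, which epithelial cells make in large amounts, read 42.3, 0.5, 39.4 and 465. The PAX8PPARg placebo array was lowest for all 3, with Cxcl2 and Cxcl5 at background there. In WT, RU486 minus placebo was -1.48 for Cxcl1, -1.12 for Cxcl2 and -3.12 for Cxcl5. In PAX8PPARg it was 2.29 for Cxcl1, and the ratio was at least 5.49-fold for Cxcl2 and at least 2.63-fold for Cxcl5. Under placebo, PAX8PPARg was lower than WT by -2.80 for Cxcl1, at least 4.66-fold for Cxcl2 and at least 22.6-fold for Cxcl5. Under RU486 Cxcl5 hardly differed between genotypes (0.02), Cxcl1 differed by 0.96, and Cxcl2 was higher in PAX8PPARg (1.36).

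Cxcl15, a mouse chemokine best known from lung epithelium, did not follow the other ELR ligands. It read 11.5 on the PAX8PPARg RU486, 783 on the PAX8PPARg placebo, 10.1 on the WT RU486 and 172 on the WT placebo array. Both RU486 signals were at background, and both placebo signals were far above it. RU486 tumours were thus at least 14.2-fold lower in PAX8PPARg and at least 5.45-fold lower in WT. Cxcl15 and the receptor gene Ccr1 were the only 2 of the 53 that differed at least 2-fold in the same direction with RU486 in both genotypes (2.44% of all genes did). Under placebo Cxcl15 was higher in PAX8PPARg than in WT (1.89).

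Promoters of 3 of the ELR ligands are shown to set Cxcl1 and Cxcl2, whose differences had the same signs, beside Cxcl15. The 250 bases before the start are given as above (RefSeq, GRCm38.p6, all on the plus strand), with NF-κB consensus matches in capitals. Cxcl1 (chr5:90890995-90891244) and Cxcl2 (chr5:90903649-90903898) each carry 1 stretch that matches on both strands, beginning 71 and 97 bases before the start, and the matched letters are the same in both. Cxcl15 (chr5:90794284-90794533) has no match in this window.
Cxcl1: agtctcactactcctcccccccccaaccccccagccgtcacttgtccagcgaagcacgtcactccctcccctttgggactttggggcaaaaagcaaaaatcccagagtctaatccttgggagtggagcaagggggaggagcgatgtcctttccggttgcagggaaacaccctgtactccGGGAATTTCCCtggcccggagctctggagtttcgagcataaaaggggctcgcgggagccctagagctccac
Cxcl2: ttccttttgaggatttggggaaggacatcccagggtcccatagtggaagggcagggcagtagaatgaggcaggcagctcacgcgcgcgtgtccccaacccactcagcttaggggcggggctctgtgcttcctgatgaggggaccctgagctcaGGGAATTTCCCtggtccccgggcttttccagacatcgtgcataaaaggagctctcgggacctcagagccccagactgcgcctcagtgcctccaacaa
Cxcl15: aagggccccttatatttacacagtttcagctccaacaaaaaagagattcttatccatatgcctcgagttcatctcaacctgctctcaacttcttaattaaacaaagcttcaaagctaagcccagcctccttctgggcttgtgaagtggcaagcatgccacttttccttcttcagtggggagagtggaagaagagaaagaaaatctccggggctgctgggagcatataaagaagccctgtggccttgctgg

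Neutrophil and epithelial markers were read beside the ELR ligands. The 7 neutrophil genes had a summed signal of 5224 on the PAX8PPARg RU486, 686 on the PAX8PPARg placebo, 2144 on the WT RU486 and 4311 on the WT placebo array. On each array S100a8, S100a9 and Mmp9 made up most of this sum. On the PAX8PPARg RU486 array they read 1108.5, 2517 and 1452, while Csf3r, Mmp8, Ngp and Camp read 48.2, 18.6, 22.2 and 57.8. With RU486, 6 of 7 were at least 2-fold higher in PAX8PPARg (median 2.14), and 0 were higher and 2 lower in WT (median 0.09). Under placebo 4 of 7 were at least 2-fold lower in PAX8PPARg than in WT (median -1.74). The granule genes Ngp and Camp were at background on 3 arrays each: Ngp on both RU486 arrays and the WT placebo array, and Camp on both placebo arrays and the WT RU486 array. Mmp8, 1 of the 6 higher in PAX8PPARg, was at background on all arrays but the WT placebo, so it has no ratio there. Csf3r was at background on the PAX8PPARg placebo array. The medians of 2.14, 0.09 and -1.74 are the values of Camp, Ngp and Csf3r, so none of them is exact. Of the squamous epithelial genes, 6 of 6 were at least 2-fold higher with RU486 in PAX8PPARg (median 3.23) and 6 of 6 were lower in WT (median -3.82, not exact, since Krt6a, Krt16, Krt1, Lor and Ivl were at background on the WT RU486 array), while 9 of 9 luminal genes were lower with RU486 in WT (median -3.66) and 1 was higher and 1 lower in PAX8PPARg (median 0.53). Their part in the ligand values was not tested. Cxcr2, the receptor of Cxcl1, Cxcl2 and Cxcl5 on neutrophils, read 65.7, 68.7, 27.3 and 84.6 on the PAX8PPARg RU486, PAX8PPARg placebo, WT RU486 and WT placebo arrays. Its RU486 difference was 0.08 in PAX8PPARg and -1.22 in WT.

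**Figure D3:**
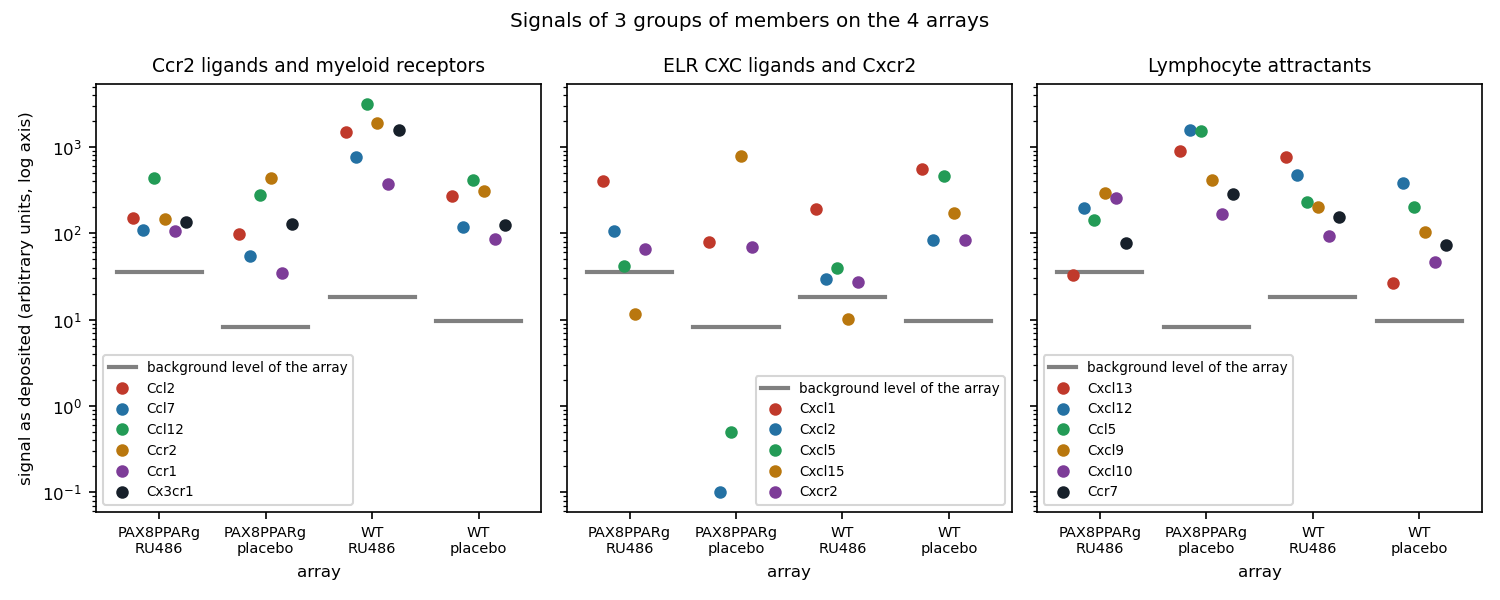
Signals as deposited (log axis, arbitrary units) of genes from 3 groups on the 4 arrays; each point is 1 gene on 1 array and grey bars mark the background level of the array. In the left panel all 6 genes are highest on the WT RU486 array, in the middle panel Cxcl2 and Cxcl5 lie under the bar on the PAX8PPARg placebo array while Cxcl15 is high there, and in the right panel Cxcl13 is high on the PAX8PPARg placebo and WT RU486 arrays.

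Among ligands that attract lymphocytes, Cxcl13 differed at least 2-fold in all 4 comparisons. Cxcl13, which calls B cells into follicles through Cxcr5, read 32.8 on the PAX8PPARg RU486, 889 on the PAX8PPARg placebo, 767 on the WT RU486 and 26.6 on the WT placebo array. It was high on 2 arrays that share neither genotype nor treatment and low on the other two, so its direction reversed between genotypes and between treatments. RU486 minus placebo was 4.20 in WT, and PAX8PPARg was at least 16.1-fold lower with RU486 than with placebo. PAX8PPARg minus WT was 4.22 under placebo, and PAX8PPARg was at least 15.9-fold lower than WT under RU486. Its second probe set, with 28.9, 730, 442 and 15.7, gave the same signs. The 250 bases upstream of Cxcl13 (chr5:95956689-95956938, plus strand, RefSeq, GRCm38.p6), shown for the gene with the largest double difference, hold no NF-κB consensus match.
Cxcl13: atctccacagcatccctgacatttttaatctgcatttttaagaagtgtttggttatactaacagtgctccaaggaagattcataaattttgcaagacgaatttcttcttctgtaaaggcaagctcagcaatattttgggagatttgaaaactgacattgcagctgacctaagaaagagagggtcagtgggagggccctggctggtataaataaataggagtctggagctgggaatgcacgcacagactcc

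B cell markers were highest on 1 of the 2 arrays where Cxcl13 was high. The 6 B and plasma cell genes summed to 243 on the PAX8PPARg RU486, 3671 on the PAX8PPARg placebo, 477 on the WT RU486 and 195 on the WT placebo array. With RU486, 6 of 6 were at least 2-fold lower in PAX8PPARg (median -3.49), and in WT 2 of 6 were higher (Jchain by 1.37 and Cd22 by 1.14) and 0 lower (median 0.80). The B cell surface gene Ms4a1 was at background on all arrays but the PAX8PPARg placebo. Cd79a, Cd79b and Pou2af1 were also at background on the PAX8PPARg RU486 array, so the median of -3.49 is not exact. Cd79a was at background on the WT placebo array too, so the WT median of 0.80 is not exact either. Cxcr5, the receptor of Cxcl13, read 29.6, 30.7, 3.1 and 0.8, at background on all arrays but the PAX8PPARg placebo. Dendritic cell genes were at least 2-fold lower with RU486 in PAX8PPARg for 3 of 5 (median -1.17), and in WT 1 of 5 was higher (median 0.71). Flt3 and Cd209a, among those 3, were at background on the PAX8PPARg RU486 array. The median of -1.17 is the value of Flt3, which has no ratio there: its PAX8PPARg placebo signal of 36.4 barely exceeds the RU486 array's background level of 35.3. The part of these cell types in the Cxcl13 values was not tested.

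Cxcl12, the stromal ligand of Cxcr4, read 197 on the PAX8PPARg RU486, 1584 on the PAX8PPARg placebo, 475 on the WT RU486 and 379.6 on the WT placebo array. It was highest on the PAX8PPARg placebo array, which gave -2.78 for RU486 in PAX8PPARg and 1.83 for genotype under placebo. In WT the RU486 difference was 0.31, and -0.69 for the second probe set. Under RU486 PAX8PPARg minus WT was -1.26, but -0.14 for the second probe set. Adipocyte genes were highest on that same array, with 4 of 4 at least 2-fold lower with RU486 in PAX8PPARg (median -4.41) and summed signals of 229.7, 7487, 281 and 576 on the PAX8PPARg RU486, PAX8PPARg placebo, WT RU486 and WT placebo arrays, and 4 of 5 endothelial genes were lower with RU486 there (median -1.63). The adipocyte gene Lep was at background on the PAX8PPARg RU486 array, so the median of -4.41 is not exact. The part of adipocyte and endothelial genes in the Cxcl12 value was not tested. Cxcr4 read 3165, 2280.5, 1658 and 1788 and stayed within 2-fold in all comparisons.

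Of the interferon-inducible ligands, Cxcl10 was higher in PAX8PPARg under both treatments and Cxcl9 under placebo. Cxcl10 read 256 on the PAX8PPARg RU486, 167 on the PAX8PPARg placebo, 94.3 on the WT RU486 and 46.1 on the WT placebo array, so both PAX8PPARg pools were above both WT pools. PAX8PPARg minus WT was 1.37 under placebo and 1.24 under RU486, and RU486 minus placebo was 0.70 in PAX8PPARg and 0.83 in WT. Cxcl9 read 293, 417, 204 and 102, which gave 1.68 under placebo and 0.44 under RU486. Cxcl11 was dim, with 37.2, 11.1, 13.0 and 17.6. Their receptor gene Cxcr3 read 33.2, 115.9, 86.6 and 51.1, and its PAX8PPARg RU486 signal, at background, was at least 2.34-fold below that of PAX8PPARg placebo. Of 15 interferon gamma response genes, 2 were at least 2-fold higher and 0 lower in PAX8PPARg under placebo (median 0.57), against 4.34% and 5.49% of all genes. Under RU486 1 was higher and 3 lower (median -0.25), against 10.9% and 10.2% of all genes. Beside Cxcl10, the genes with a genotype difference of at least 2-fold and 1 sign under both treatments were Ccl2, Ccl7 and Ccr1, lower in PAX8PPARg, and Cxcr5, which gave 5 of 53 against 1.86% of all genes. For Cxcr5 the ratio was at least 1.60-fold under placebo, and under RU486 both signals were at background.

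The promoter of Cxcl10 is shown as the 1 printed here with both an NF-κB match and an interferon response core. The 250 bases before its start (chr5:92348890-92349139, minus strand, RefSeq, GRCm38.p6) hold 2 NF-κB stretches, beginning 159 and 104 bases before the start, and 1 match to the core of interferon-stimulated response elements, taken as a pair of GAAA repeats parted by any 2 bases, 213 bases before it. All are in capitals, and none overlaps another kind. Both strands were searched, and 2.98% of all promoters hold the interferon core.
Cxcl10: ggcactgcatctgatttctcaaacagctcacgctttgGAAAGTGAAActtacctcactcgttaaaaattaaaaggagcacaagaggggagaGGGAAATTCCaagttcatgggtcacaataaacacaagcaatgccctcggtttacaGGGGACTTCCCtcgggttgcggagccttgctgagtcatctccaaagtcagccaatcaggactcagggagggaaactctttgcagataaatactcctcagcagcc

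Ligands of Ccr4, which brings regulatory and helper T cells into tissue, went opposite ways in PAX8PPARg. Ccl17 read 191.9 on the PAX8PPARg RU486, 66.1 on the PAX8PPARg placebo, 187 on the WT RU486 and 241 on the WT placebo array, and was 1.47 higher with RU486 in PAX8PPARg. Ccl22 read 62.6, 253, 172.5 and 119.5 and was 1.64 lower by the same comparison (-1.64). In WT both stayed within 2-fold (-0.34 for Ccl17 and 0.48 for Ccl22). Ccl1, a Ccr8 ligand, was at background on 3 arrays and read 11.2 on the WT placebo array, just above it.

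Of 6 epithelial and mucosal ligands, Cxcl17 and Ccl28 were at least 2-fold higher with RU486 in PAX8PPARg (10.6% of all genes), and none differed 2-fold with RU486 in WT (7.46% of all genes higher and 8.88% lower). Cxcl17, a mucosal chemokine that attracts myeloid cells, read 242 on the PAX8PPARg RU486, 20.7 on the PAX8PPARg placebo, 14.8 on the WT RU486 and 36.4 on the WT placebo array. It was high on the PAX8PPARg RU486 array alone, at 2.95 over PAX8PPARg placebo and at least 7.18-fold over WT RU486. Ccl28, which guides IgA plasma cells to the lactating gland through Ccr10, read 62.2, 22.4, 8.6 and 23.3, which gave 1.16 for RU486 in PAX8PPARg. The 2-fold call was lost with a pseudocount of 64 (0.65), with quantile normalization (0.93) and with averaged probe sets (0.47). The value was -0.21 for its second probe set, which was at background on 3 arrays. Cxcl14, a chemokine of normal epithelium and stroma, read 817, 1602.5, 2386 and 1324.5 and was lower in PAX8PPARg than in WT under RU486 (-1.59). Its second probe set gave -0.91, within 2-fold. Ccl20, Ccl25 and Ccl27a stayed within 2-fold in all 4 comparisons, as did the membrane-bound ligands Cx3cl1 and Cxcl16 and the Xcr1 ligand Xcl1. The second probe set of Cx3cl1, however, was 1.06 lower with RU486 in PAX8PPARg (-1.06).

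Of the 6 myeloid receptors, Cx3cr1, Ccr2 and Ccr1 were higher with RU486 in WT, and Cxcr2 was lower as given above. Cx3cr1, the fractalkine receptor of monocytes and tissue macrophages, read 137 on the PAX8PPARg RU486, 129.6 on the PAX8PPARg placebo, 1579.9 on the WT RU486 and 124 on the WT placebo array. Ccr2, the receptor of Ccl2, read 147, 435, 1880.1 and 312.5. Ccr1 read 106.5, 34.4, 371 and 86.6. RU486 minus placebo in WT was 3.51 for Cx3cr1, 2.53 for Ccr2 and 1.92 for Ccr1. In PAX8PPARg, Ccr1 was again higher (1.41), Cx3cr1 was flat (0.20) and Ccr2 was lower (-1.33). The other 2 Ccr2 probe sets gave -0.19 and -0.69 in PAX8PPARg, each at background on the RU486 array, so neither size is exact. The probe set with -0.69 read 61.8 on the placebo array, above the RU486 array's background level of 35.3, and so was lower with RU486. The probe set with -0.19 read 39.3 on the placebo array, close to that level, and shows no direction. By the brightest probe sets, the RU486 difference in PAX8PPARg was 0.69 for the ligand Ccl2 and -1.33 for Ccr2. Ccr3, the eosinophil receptor, was at background on 3 arrays, and Ccr1l1 on all 4.

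Several lymphocyte and dendritic cell receptors were highest on the PAX8PPARg placebo array. Ccr7, which takes naive T cells and mature dendritic cells to lymph nodes, read 78.1 on the PAX8PPARg RU486, 288 on the PAX8PPARg placebo, 154 on the WT RU486 and 73.4 on the WT placebo array. Ccr6, a receptor of B cells and Th17 cells, read 39.6, 163, 58.4 and 50.2. RU486 minus placebo in PAX8PPARg was -1.56 for Ccr7 and -1.55 for Ccr6, and genotype under placebo was 1.57 and 1.24. In WT both stayed within 2-fold (0.93 and 0.17). Over the 10 receptors of this group, 4 were at least 2-fold lower and 1 higher with RU486 in PAX8PPARg (median -0.67; 7.08% and 10.6% of all genes), and 0 were 2-fold different in WT (median 0.21). The 1 higher was Ccr10, which was at background on both PAX8PPARg arrays and has no ratio there. Ccr9 has no ratio either: its value of -1.30 rests on a PAX8PPARg RU486 signal of 4.2, and the PAX8PPARg placebo signal of 38.7 barely exceeds the background level of the RU486 array. T and NK cell markers peaked on the same array, with 9 of 10 at least 2-fold lower with RU486 in PAX8PPARg (median -2.33) and summed signals of 359.5, 2843, 563 and 606 on the PAX8PPARg RU486, PAX8PPARg placebo, WT RU486 and WT placebo arrays. Cd3d, Cd5, Cd4, Nkg7, Gzma and Klrk1 were at background on the PAX8PPARg RU486 array, so the median of -2.33 is not exact. Their part in the receptor values was not tested. Ccr4, Cxcr6 and Xcr1 were within 2-fold throughout, and Ccr8 was at background on all 4 arrays.

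Of the atypical receptors, Ackr3 and Ackr4 differed most. Ackr3, the scavenger of Cxcl12, read 1239.8 on the PAX8PPARg RU486, 557 on the PAX8PPARg placebo, 1481 on the WT RU486 and 1849 on the WT placebo array. It was lowest where Cxcl12 was highest, with 1.26 for RU486 in PAX8PPARg, -0.32 for RU486 in WT and -1.89 for genotype under placebo. Ackr4, which clears Ccr7 ligands, read 124.6, 151, 6.4 and 67.3. It was low on the WT RU486 array alone, at background, which was at least 2.41-fold below WT placebo and at least 3.92-fold below PAX8PPARg RU486. Ackr1, the chemokine binder of venules, read 24.8, 74.0, 34.0 and 34.2, and was at least 1.60-fold lower with RU486 in PAX8PPARg. Ackr2, which degrades inflammatory CC chemokines, stayed within 2-fold.

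**Figure D4:**
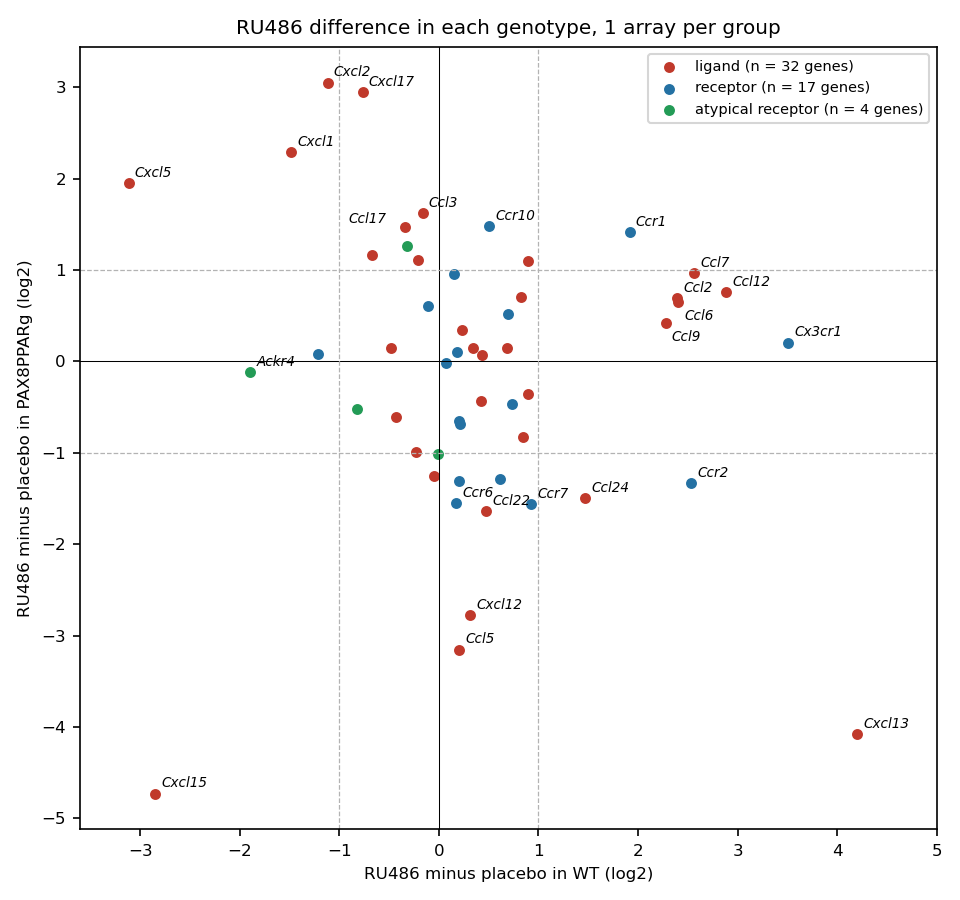
RU486 minus placebo (log2) in WT (x axis) and in PAX8PPARg (y axis) for the 53 genes, coloured by kind, with dashed lines at 2-fold; each axis is a difference of 2 arrays, and the axes share no array. Points of genes at background on an array are drawn at their computed value and are not exact. Cxcl13 lies alone at the lower right (4.20 in WT and at least 16.1-fold lower in PAX8PPARg), Cxcl5, Cxcl1 and Cxcl2 at the upper left, and Cxcl15 at the lower left.

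Both RU486 differences were then set side by side. As computed from the signals, 6 of the 53 genes differed at least 2-fold with opposite sign (3.11% of all genes): Cxcl13, Ccr2 and Ccl24 were higher with RU486 in WT and lower in PAX8PPARg, and Cxcl1, Cxcl2 and Cxcl5 the reverse. For Ccl24 a 2-fold difference in PAX8PPARg is not shown, since its RU486 signal there was at background: the bound was 1.16-fold, and the difference was -0.22 with signals floored at the background level and -0.61 with a pseudocount of 64. The RU486 difference in PAX8PPARg exceeded that in WT by at least 2-fold in 11 of the 53 genes (15.6% of all genes) and was below it by at least 2-fold in 22 (12.2% of all genes). Genotype differences were at least 2-fold and of opposite sign under the 2 treatments for Cxcl12, Cxcl13 and Cxcl2 (2.67% of all genes). For Cxcl12 this holds for the brightest probe set only, since the second gave 1.44 under placebo and -0.14 under RU486.

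Many of these genes lie in clusters of recent duplicates, so the order of neighbours was set beside the values. On chromosome 11, RefSeq places Ccl2, Ccl7, Ccl11, Ccl12, Ccl8 and Ccl1 in a row and, farther along, Ccl5, Ccl9, Ccl6, Ccl3 and Ccl4. The WT RU486 difference was above 2 log2 for Ccl2, Ccl7 and Ccl12 and -0.05 for Ccl11, which lies between them. In the second row it was above 2 log2 for Ccl9 and Ccl6 and 0.20 and -0.16 for their neighbours Ccl5 and Ccl3. On chromosome 5, Cxcl5, Cxcl15, Cxcl1 and Cxcl2 follow one another among the genes read here, with Ppbp and Pf4 between Cxcl5 and Cxcl15. Cxcl15 was at least 14.2-fold lower with RU486 in PAX8PPARg, next to Cxcl1 with a difference of 2.29. Pf4, the platelet factor that is a CXC chemokine by structure, differed by 1.32 with RU486 in WT and -0.16 in PAX8PPARg. Neighbours thus did not share 1 value in either cluster.

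**Figure D5:**
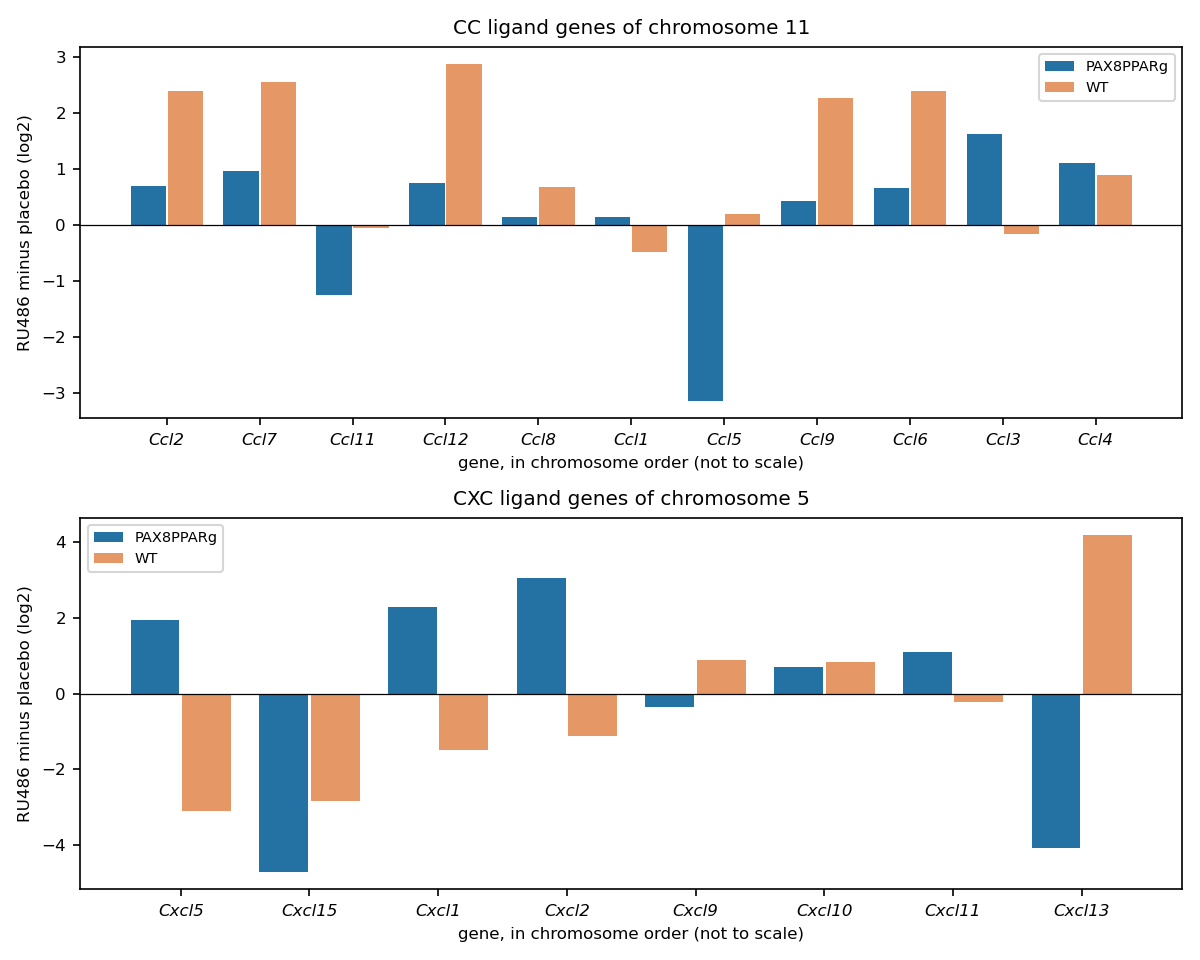
RU486 minus placebo (log2) in PAX8PPARg (blue bars) and WT (orange bars) for CC ligand genes of chromosome 11 (top) and CXC ligand genes of chromosome 5 (bottom), in chromosome order and not to scale; each bar is a difference of 2 arrays. Tall orange bars at Ccl2, Ccl7, Ccl12, Ccl9 and Ccl6 are broken by Ccl11, Ccl8, Ccl1 and Ccl5, and the sign of the bars changes between Cxcl15 and Cxcl1 in PAX8PPARg.

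Genes downstream of chemokine receptors were read from a list of 31 measured signalling genes. With RU486 in WT, 9 were at least 2-fold higher and 0 lower (median 0.60), against 7.46% and 8.88% of all genes. In PAX8PPARg 2 were higher and 4 lower (median -0.21), against 10.6% and 7.08% of all genes. The share higher in PAX8PPARg was thus not above that of all genes. Under RU486, 14 were lower and 0 higher in PAX8PPARg than in WT (median -0.71), against 10.2% and 10.9% of all genes. Under placebo 4 were higher and 1 lower (median -0.09), against 4.34% and 5.49% of all genes. Dock2, which activates Rac during leukocyte migration, read 41.4 on the PAX8PPARg RU486, 345.5 on the PAX8PPARg placebo, 408 on the WT RU486 and 118 on the WT placebo array. Rac2, the Rac of blood cells, read 194, 355, 829 and 135.6, and Rgs16, a brake on G protein signals, read 718, 139.8, 656 and 568. Much of this list is expressed mainly in leukocytes, whose markers did not move as 1 group. With RU486 in WT, 11 of 12 macrophage and 0 of 7 neutrophil genes were at least 2-fold higher. In PAX8PPARg these counts were 0 and 6, and 9 of 10 T and NK cell genes were lower. The part of leukocytes in the signalling values was not tested. Of 17 genes that induce chemokines through NF-κB or report its activity, 1 was higher and 1 lower with RU486 in WT (median 0.20). In PAX8PPARg 4 were higher and 3 lower (median 0.12). Over all genes 7.46% were higher and 8.88% lower in WT, and 10.6% higher and 7.08% lower in PAX8PPARg. Of the 4, Il1a, Il6 and Il17a were at background on both PAX8PPARg arrays, which leaves Il1b alone with a ratio. Tnf, among the 3 lower, was at background on the PAX8PPARg RU486 array, as was Tnfaip3, whose value is the 0.12 median. The 1 lower in WT, Il1a, was at background on the WT RU486 array. Il1b, a strong inducer of ELR ligands, read 529, 114.5, 694 and 1127 on the PAX8PPARg RU486, PAX8PPARg placebo, WT RU486 and WT placebo arrays. Like Cxcl1 it was lowest on the PAX8PPARg placebo and highest on the WT placebo array. Under RU486 the signs differed: PAX8PPARg minus WT was -0.44 for Il1b and 0.96 for Cxcl1. The part of Il1b in the ligand values was not tested. Among 12 genes that cleave, shed or display chemokines, Mmp12, which trims ELR and CC ligands, read 995, 149, 109.4 and 726. Of the list, 3 were lower with RU486 in WT (median -0.12), against 8.88% of all genes. In PAX8PPARg 3 of the list were higher and 1 lower (median 0.23), against 10.6% and 7.08% of all genes.

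A model that treats the RU486 and genotype effects as additive over all 4 arrays called no gene. With limma and Benjamini-Hochberg adjustment, 0 of 6197 genes above the median level passed for RU486 or for genotype (0% of all genes in both), and so 0 of the 16 chemokine and receptor genes among them. The lowest adjusted p of the 16 was 0.979 for RU486 and 0.930 for genotype. At an unadjusted p under 0.05 there were 271 genes for RU486, of which 3 chemokine genes, and 286 for genotype, of which 5. Ccl2, Ccl6 and Ccl12 were the 3 for RU486, and with Ccl8 and Ccl9 they were also the 5 for genotype. For RU486 the 3 became 0 with a pseudocount of 64 and without centring, and for genotype the 5 became 1 under each of these and with quantile normalization. The opposite RU486 differences given above enter the residual of this model, which has 1 degree of freedom.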

How the data were processed

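Probe set signals of the 4 arrays were used as deposited: an intensity on a linear scale, already on a common level at deposit, as the equal trimmed means of the arrays show. No source used here names the software behind them, and neither raw files nor detection calls were used. Probe sets were named through the platform annotation, and 20380 of 22690 had a single symbol. Members were found by symbol, with the brightest probe set taken per gene. Signals were analysed as log2(signal + 16) after subtracting from each array the median of its probe sets other than controls.

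Each pair of arrays was compared by subtraction, with genes counted at 2-fold over all 12393 genes and no filter. The background level was the highest of 27 bacterial controls. Both additive effects were fitted with limma 3.58.1 (R 4.3.3, trended variance, adjusted p at or under 0.05), after a run on simulated data. The sources record no batch. Alternatives were a pseudocount of 64, no centring, quantile normalization, averaged probe sets, the opposite level filter and a floor at the bacterial controls. Members, role groups and gene lists were chosen with earlier results of these data known, and any member could be named, those at least 4-fold different in a comparison being given in full. Python 3.11.15 was used.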

Additional observations from a re-analysis of the deposited data

Results flagged for a closer look

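In 6 genes the computed RU486 difference was at least 2-fold in each genotype but of opposite sign, with 1 array per group, so the difference between genotypes was not tested. The RU486 difference in PAX8PPARg minus that in WT was -8.28 log2 for Cxcl13, -3.86 for Ccr2 and -2.96 for Ccl24. It was 5.07 for Cxcl5, 4.17 for Cxcl2 and 3.77 for Cxcl1. Cxcl2 and Cxcl5 were at background on the PAX8PPARg placebo array, and Cxcl13 and Ccl24 on the PAX8PPARg RU486 array, so these 4 sizes are not exact. For Ccl24 the 2-fold call in PAX8PPARg itself is lost, with a bound of 1.16-fold and a difference of -0.22 with the floor at the bacterial controls. Of the 3 probe sets of Ccr2, the brightest alone differed 2-fold with RU486 in PAX8PPARg as computed (-1.33, against -0.19 and -0.69). The other 2 were at background on the PAX8PPARg RU486 array, so their sizes are not exact.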

How the results depend on the processing

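No paired analysis was possible because each group has 1 array, and no replicate could be left out. Of 80 differences of at least 2-fold between 2 arrays, 76 stayed at least 2-fold with the same sign without centring, 76 with quantile normalization, 72 with averaged probe sets, 74 with the floor at the bacterial controls and 54 with a pseudocount of 64. The signs of 2 reversed, both with that floor and both of Ccr9: RU486 in PAX8PPARg became 0.041 and genotype under RU486 0.31. A pseudocount of 64 left 3 genes lower with RU486 in WT, 6 higher with RU486 in PAX8PPARg, 2 higher in PAX8PPARg under RU486 and 7 with a higher RU486 difference in PAX8PPARg than in WT. Among the 16 genes above the median level, 6 were higher and 1 lower with RU486 in WT, and 2 higher and 4 lower in PAX8PPARg. For PAX8PPARg against WT, 3 were higher and 3 lower under placebo, and 0 higher and 9 lower under RU486. In the double difference 2 were higher and 11 lower. These are counts out of 16 and not of 53, and the matching shares over all genes above the median level were not computed. The additive fits called 0 genes under each alternative, with 254 to 550 genes for RU486 and 223 to 455 for genotype at an unadjusted p under 0.05. The median difference of all genes shifted by over 0.1 without centring and with quantile normalization for RU486 in PAX8PPARg (to 0.00 and 0.02) and for genotype under placebo (to 0.04 and -0.01), and with the floor for RU486 in WT (to 0.12) and genotype under RU486 (to 0.18). Dim signals limit most of these counts, since 37 of the 53 genes lay below the median level.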
